A study of Mus musculus with 12 samples.

Results

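The T cell receptor is the antigen sensor of T cells, and 10 genes of its complex were followed through the skin RNA-Seq of WT and Thy-1–KO mice. They were chosen by name, as the rows of the count file with the symbols Trac, Trbc2, Trdc, Cd3d, Cd3e, Cd3g, Cd4, Cd8a, Cd28 and Lck, and they are 10 of the 55453 genes in that file. All 10 had enough counts to be among the 18311 genes tested. Thy1, which mouse T cells carry on their surface and which the knockout targets, was left out of the group.

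An alpha-beta T cell reads peptides on MHC molecules through an alpha chain (constant region Trac) and a beta chain (constant regions Trbc1 or Trbc2), while a gamma-delta T cell uses a delta chain (Trdc) and a gamma chain. Neither receptor signals by itself, so CD3 delta, epsilon and gamma (Cd3d, Cd3e, Cd3g) and the zeta chain (Cd247) carry the signal inward. CD4 and CD8 are co-receptors that bind MHC class II and class I and bring the kinase Lck to the receptor, and CD28 gives the second, co-stimulatory signal. Mouse epidermis holds a dense resident network of gamma-delta T cells, the dendritic epidermal T cells, whereas alpha-beta T cells in skin are mainly dermal or arrive during inflammation.

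The samples were skin from 12 mice on the C57/BL6 background, 3 in each of 4 groups: wild type given PBS (WT PBS), wild type given bleomycin (WT BLM), Thy1-knockout given PBS (KO PBS) and Thy1-knockout given bleomycin (KO BLM). Bleomycin is a cytotoxic antibiotic that causes fibrosis of the skin into which it is injected. The knockout is carried in every cell type, T cells included. Per the study's methods the knockout mice were female, 8 to 12 weeks old and backcrossed for at least 10 generations. Bleomycin at 10 mg/kg per day, or PBS alone, was injected at 2 spots of the back for up to 14 days by the methods or for 21 by the labels, before harvest at day 21. The comparisons ask whether bleomycin changed expression in each genotype, and whether the genotypes differed under each treatment.

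Between 26473700 and 38890450 reads per mouse were counted on genes. Levels are given as CPM, the count scaled to a common library total by edgeR's TMM method, and every adjusted p comes from edgeR's quasi-likelihood test, adjusted by Benjamini-Hochberg over all 18311 genes, with a threshold of 0.05. Where mice were left out the filter on low counts kept other numbers of genes, 18739 without mouse 136, 18783 without mouse 141 and 18688 without both, and the adjustment ran over those. In bulk skin, fewer T cells and less RNA per T cell cannot be told apart. Thy1 itself was counted at 104, 115 and 150 CPM in WT PBS, 231, 349 and 416 CPM in WT BLM, 45.6, 96.9 and 77.4 CPM in KO PBS and 84.7, 128 and 96.4 CPM in KO BLM mice. It was lower in the knockouts under each treatment without overlap, but not absent, and counts per gene do not show which part of it was read. Tnfrsf23, a decoy death receptor gene of another chromosome, separated the genotypes more clearly, with means of 6.87 CPM in WT PBS and 29.1 CPM in WT BLM against 0.0774 CPM in KO PBS and 0.0970 CPM in KO BLM mice. Mice 136 (KO PBS) and 141 (KO BLM) stood apart from their groups. Over 29 growing hair genes their mean level was 9.98 and 8.91 log2 CPM, against 9.32 to 10.1 in the WT PBS mice and -0.475 to 6.07 in the other 7, so results that rest on them are given with and without them.

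The beta chain genes are shown first, because Trbc1 and Trbc2 are near copies and reads of either can fall on both. Trbc2 lies at chr6:41546730-41548352 on the plus strand, and Trbc1 precedes it on the same strand. In the GENCODE M21 transcripts (GRCm38) the 375 bases of their first exons differed at 1 base, within the 60 bases chr6:41538447-41538506 of Trbc1 and chr6:41546959-41547018 of Trbc2. Capitals mark the base that differs.
Trbc1: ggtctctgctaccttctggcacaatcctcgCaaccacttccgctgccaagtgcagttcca
Trbc2: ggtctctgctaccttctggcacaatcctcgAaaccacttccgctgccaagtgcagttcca
In the 143 spliced coding bases that follow exon 1, which encode the end of the extracellular part, the membrane span and the tail, 22 bases differed, again in capitals.
Trbc1: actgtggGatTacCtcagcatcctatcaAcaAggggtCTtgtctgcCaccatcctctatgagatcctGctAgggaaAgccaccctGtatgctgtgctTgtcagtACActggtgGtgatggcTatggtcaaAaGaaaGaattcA
Trbc2: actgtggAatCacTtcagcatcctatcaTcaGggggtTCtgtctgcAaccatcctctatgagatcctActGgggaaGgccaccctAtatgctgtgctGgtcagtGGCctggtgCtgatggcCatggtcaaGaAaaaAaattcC
Over all 518 coding bases the pair was 95.6% identical, with a shared run of 259 bases, so the split of reads between Trbc1 and Trbc2 is uncertain and their values are best read together.

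The CD3 genes are shown next, because they lie side by side and varied together more closely than most pairs of the group. Cd3g (chr9:44969572-44980431, minus strand) and Cd3d (chr9:44981786-44987339, plus strand) are read away from each other from starts 1355 bases apart, and Cd3e (chr9:44998740-45009627, minus strand) follows. The 250 bases before each start, from RefSeq on GRCm38.p6, are given 5′ to 3′ on the strand of the gene. Capitals mark AGGAAG or CTTCCT, the core that ETS factors bind, and CAGGTG or CACCTG, an E-box bound by E proteins. The letters of the 2 motifs cannot overlap.
Cd3g (chr9:44980432-44980681): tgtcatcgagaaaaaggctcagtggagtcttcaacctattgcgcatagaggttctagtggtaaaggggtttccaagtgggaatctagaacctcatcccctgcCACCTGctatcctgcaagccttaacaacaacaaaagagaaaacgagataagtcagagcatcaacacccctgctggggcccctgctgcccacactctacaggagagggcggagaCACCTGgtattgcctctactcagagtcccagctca
Cd3d (chr9:44981536-44981785): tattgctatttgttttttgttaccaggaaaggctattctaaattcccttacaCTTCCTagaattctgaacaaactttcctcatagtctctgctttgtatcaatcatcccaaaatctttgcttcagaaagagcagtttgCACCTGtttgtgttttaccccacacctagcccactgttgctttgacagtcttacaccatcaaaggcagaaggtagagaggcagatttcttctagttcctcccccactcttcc
Cd3e (chr9:45009612-45009861): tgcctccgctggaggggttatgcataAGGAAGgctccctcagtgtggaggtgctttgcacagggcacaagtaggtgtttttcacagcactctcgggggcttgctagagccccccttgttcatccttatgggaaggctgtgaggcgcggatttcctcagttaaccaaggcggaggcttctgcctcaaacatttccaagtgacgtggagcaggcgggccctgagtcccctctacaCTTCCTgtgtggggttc
ETS letters were found once for Cd3d, in 2 places for Cd3e and not for Cd3g, and E-box letters once for Cd3d, in 2 places for Cd3g and not for Cd3e. On either strand, 29.5% of the 32851 promoter windows held the ETS letters and 17.2% the E-box letters. The RUNX letters TGTGGT or ACCACA, held by 4614 of the windows, were in none of these 3, and the GATA letters AGATAA or TTATCT, held by 3281, were in that of Cd3g. Of the 10 genes, 5 matched a RefSeq promoter, and the CD3 windows are printed because those genes varied together. These matches describe the windows and show no binding. Across the 12 mice, the log2 CPM of Cd3d, Cd3e and Cd3g correlated with each other at Pearson r of 0.950 to 0.974, against a median of 0.811 and a lowest value of 0.303 over the 45 pairs of the 10 genes. Trdc, on another chromosome, correlated as closely with Cd3e (0.981) and Cd3g (0.976), and with Cd3d at 0.929. The mice share their groups and libraries, so these values are descriptions.

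The other members lie at chr14:54220521-54224206 (Trac, plus strand), chr14:54142851-54148868 (Trdc, plus strand), chr6:124864692-124888221 (Cd4, minus strand), chr6:71373427-71379173 (Cd8a, plus strand), chr1:60716800-60773359 (Cd28, plus strand) and chr4:129548344-129573641 (Lck, minus strand). The CD3 cluster is 0.921 to 0.950 Mb from Thy1 on chromosome 9. Of 82 genes tested within 2 Mb of Thy1, 0 passed the test in KO PBS against WT PBS and 0 in KO BLM against WT BLM. An unadjusted p under 0.05 was found for 16 and 19 of them, and for 3727 and 3043 of all 18311 genes. The smallest adjusted p were 0.148 (Tagln) and 0.210 (Tmem25). Exons of Trdc overlap Gm43434 over 96 bases and Trdv5 over 207 bases on the opposite strand, and exons of Cd3e overlap Gm48719 over 135 bases on the opposite strand. Reads of such partners cannot be told apart if the counting ignored strand, which is not given in the sources used here.

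The order of the 10 genes was read per length, as CPM per kb of merged exons. In WT PBS skin Trbc2 stood highest, with 15.9 ± 2.35 CPM per kb (SD, n = 3). Trdc (1.91 ± 0.139), Cd3g (1.84 ± 0.329) and Lck (1.73 ± 0.235 CPM per kb) came next and differed by less than their spread. Cd3e (1.17 ± 0.133), Trac (0.979 ± 0.201), Cd3d (0.863 ± 0.0571) and Cd4 (0.726 ± 0.0703 CPM per kb) followed, with Trac within the spread of both its neighbours. Cd28 (0.148 ± 0.0581) and Cd8a (0.0853 ± 0.0245 CPM per kb) were lowest. In WT BLM skin Cd4 had moved from eighth to second place, at 5.35 ± 2.76 CPM per kb, beside Trac (4.90 ± 0.771), Cd3g (4.77 ± 1.97) and Trdc (4.68 ± 2.57 CPM per kb), from which it did not differ beyond the spread. Per length, the delta chain constant gene was thus above that of the alpha chain in WT PBS skin, and in WT BLM skin the means of the pair differed by less than their spread. The merged exon lengths come from the annotation, and reads that ended in 3′ ends not annotated there would be missed.

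**Figure D1:**
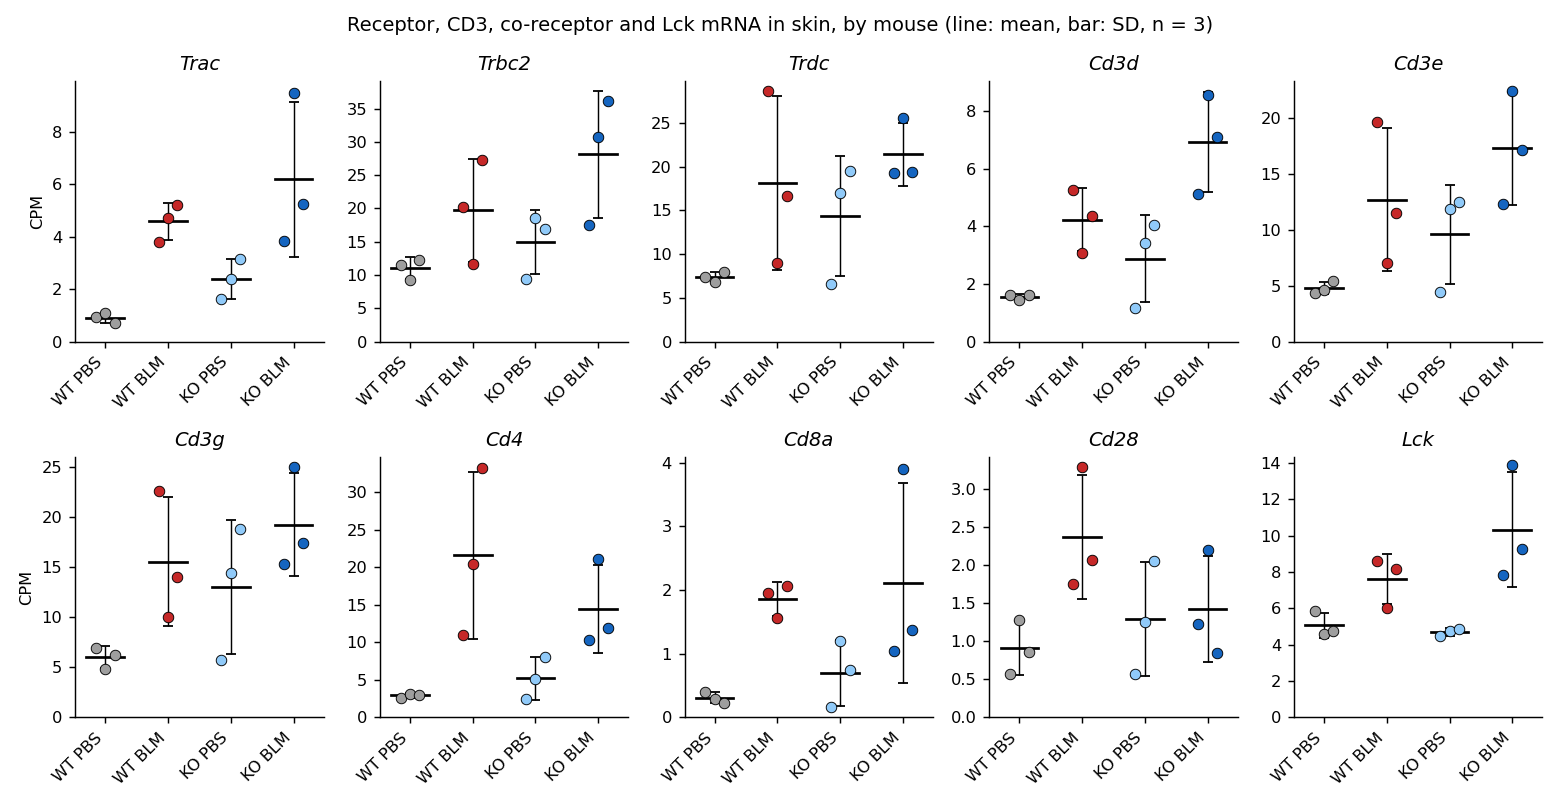
CPM of each of the 10 genes (vertical axis, linear, from 0) in the 12 mice, by group, with the group mean as a line and the SD as a bar (n = 3). The WT BLM points lie above the WT PBS points for every gene but Trbc2, and the lowest KO PBS point of each gene is mouse 136.

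Receptor, CD3 and co-receptor mRNA was higher in bleomycin-treated than in PBS-treated WT skin. In WT BLM against WT PBS mice, 7 of the 10 genes rose, by 2.45-fold to 7.36-fold, and the other 3 (Cd28, Lck and Trbc2) were also above 0 but missed the threshold. Of all genes tested, 34% passed in either direction and 19.8% rose. The median log2 fold change of the 10 genes was 1.39, against 0.018 over all genes, and 9 of the 10 were higher in each WT BLM mouse than in any WT PBS mouse, which 28.3% of all genes were.

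Among the receptor chains, Trac was counted at 0.947, 1.09 and 0.713 CPM in WT PBS mice and at 3.798, 4.73 and 5.22 CPM in WT BLM mice 145, 146 and 147. The lowest bleomycin mouse was more than 3 times the highest PBS mouse, and the rise was 5.01-fold (log2 fold change 2.32, SE 0.38, adjusted p = 0.00478). Trdc stood at 7.34, 6.88 and 7.95 CPM in WT PBS and at 28.7, 8.97 and 16.6 CPM in WT BLM mice. The groups did not overlap, but mouse 146 was close to the PBS mice and mouse 145 far above them, and the rise was 2.45-fold (1.29, SE 0.44, adjusted p = 0.0440). Trbc2 was at 11.6, 9.21 and 12.3 CPM in WT PBS and 20.3, 11.7 and 27.2 CPM in WT BLM mice, so that mouse 146 lay within the PBS range (0.84, SE 0.36, adjusted p = 0.0922). Its near copy Trbc1 rose from a mean of 2.82 to 8.77 CPM (1.64, SE 0.38, adjusted p = 0.0131).

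The 3 CD3 genes rose by similar amounts. Cd3d went from 1.62, 1.45 and 1.63 CPM to 5.25, 3.07 and 4.36 CPM (1.43, SE 0.41, adjusted p = 0.0265). Cd3e went from 4.36, 4.61 and 5.40 CPM to 19.6, 7.04 and 11.4 CPM (1.403, SE 0.44, adjusted p = 0.0343). Cd3g went from 6.93, 4.84 and 6.29 CPM to 22.6, 10.04 and 14.1 CPM (1.37, SE 0.42, adjusted p = 0.0334). For each of the 3, and for Trdc, mouse 145 was the highest and mouse 146 the lowest of the WT BLM mice, and no WT BLM mouse fell into the PBS range.

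The co-receptors showed the largest rises of the 10 genes beside Trac, and in another order of mice. Cd4 stood at 2.60, 3.13 and 3.06 CPM in WT PBS and at 11.04, 20.5 and 33.2 CPM in WT BLM mice 145, 146 and 147, a 7.36-fold rise (2.88, SE 0.50, adjusted p = 0.00561). Here mouse 145, which led for CD3, was the lowest. Cd8a was scarce, with 9 to 12 counts in a WT PBS mouse and 48 to 63 counts in a WT BLM mouse. Its level went from 0.406, 0.296 and 0.229 CPM to 1.96, 1.56 and 2.07 CPM, a 5.99-fold rise (2.58, SE 0.68, adjusted p = 0.0194). Cd28, with 17 to 39 counts per WT PBS mouse, was at 0.575, 1.28 and 0.866 CPM in WT PBS and 1.76, 3.29 and 2.07 CPM in WT BLM mice, without overlap (1.39, SE 0.52, adjusted p = 0.0608). Lck was at 5.85, 4.57 and 4.76 CPM in WT PBS and 8.61, 6.03 and 8.17 CPM in WT BLM mice, also without overlap but by the smallest amount of the 10 (0.59, SE 0.23, adjusted p = 0.0730).

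Of the 7 calls, those of Trac and Cd4 were kept whichever WT mouse was left out. Those of Cd3d, Cd3e, Cd3g and Trdc were kept without WT BLM mouse 146 and lost without each of the other 5. That of Cd8a was kept without mouse 145 or 146 and lost without each of the other 4. Between 2 and 7 of the 10 genes thus passed. In these fits 13.9% to 21.5% of all genes were called, against 34% with all mice. Without KO PBS mouse 136, which enters through the shared estimate of the spread, 8 passed, with 45.7% of all genes called and 24.1% higher. Without mice 136 and 141 all 10 passed, with 49% of all genes called and 25.6% higher.

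**Figure D2:**
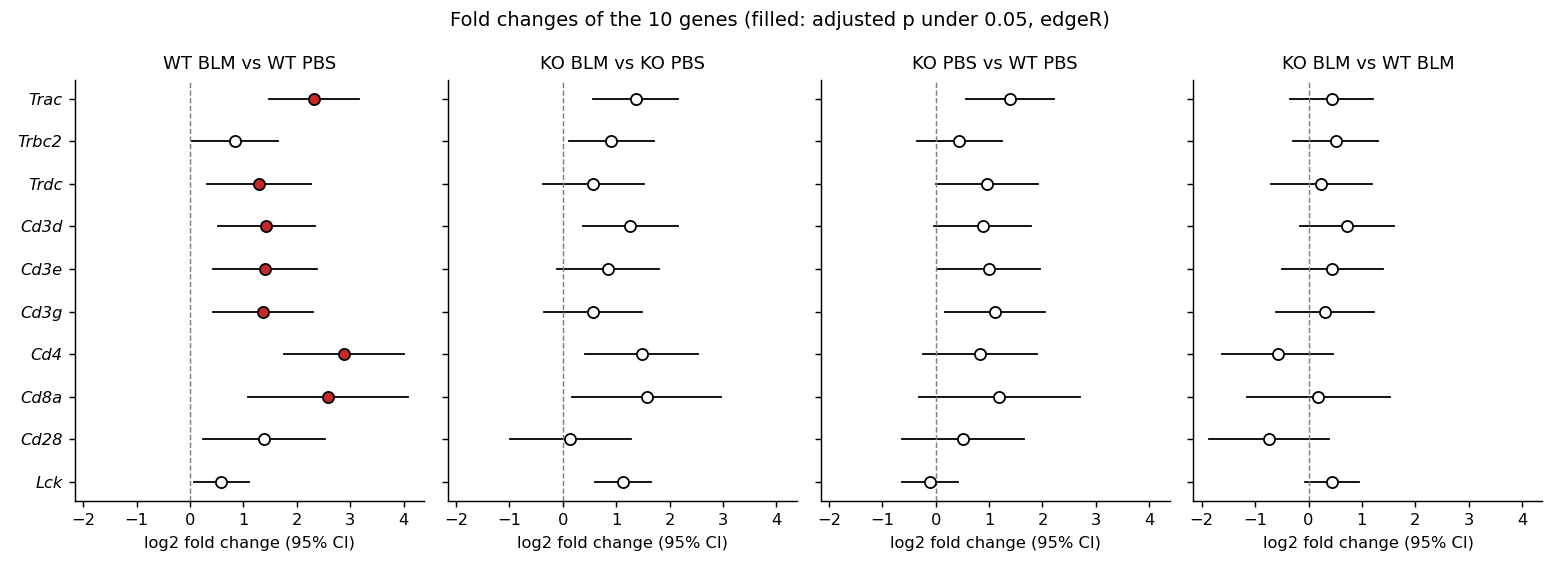
Log2 fold change of each gene (horizontal axis) with its 95% confidence interval in the 4 comparisons between groups, filled where the adjusted p was under 0.05. In WT BLM against WT PBS 7 points are filled and all 10 intervals lie above 0, and in the other 3 comparisons no point is filled.

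Other genes of the receptor pathway moved the same way in WT skin. These lists were written with earlier results of these data known, and their counts are descriptions. Of 10 other receptor chains tested, 5 rose and 0 fell, led by Cd8b1 (3.79, SE 0.83, adjusted p = 0.0108), the partner of Cd8a in the CD8 alpha-beta dimer, with Trbc1, Cd247 (1.16, SE 0.35, adjusted p = 0.0303) and the gamma constant gene Tcrg-C1 (1.36, SE 0.41, adjusted p = 0.0306). Of 38 genes of receptor signalling, 20 rose and 1 fell. Among the genes that rose were the adaptor Fyb (2.25, SE 0.33, adjusted p = 0.00410), and the phosphatases Ubash3b (1.11, SE 0.15, adjusted p = 0.00357) and Ptpn22 (2.11, SE 0.37, adjusted p = 0.00557), which damp the signal. Many of these genes also act in other leukocytes.

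Of 27 T cell surface and co-signalling receptors, 19 rose and 0 fell. Pdcd1, which encodes the inhibitory receptor PD-1, went from a mean of 0.112 to 2.90 CPM (4.66, SE 0.60, adjusted p = 0.00314). Tnfrsf9, the co-stimulatory receptor 4-1BB, went from 0.759 to 4.07 CPM (2.41, SE 0.38, adjusted p = 0.00450). Of 13 ligands on presenting cells 10 rose and 1 fell, with the CD28 ligand Cd80 at 1.19 CPM before and 7.85 CPM after (2.72, SE 0.37, adjusted p = 0.00355) and Cd40 at 1.70 and 9.36 CPM (2.46, SE 0.52, adjusted p = 0.00999). The genes that rose thus included activating and inhibitory partners alike.

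Of 19 T cell transcription factors 9 rose and 3 fell. The rises included Ets1 (1.19, SE 0.25, adjusted p = 0.00999) and Ikzf1 (1.93, SE 0.42, adjusted p = 0.0108). Tcf7 fell from a mean of 53.2 to 17.8 CPM (-1.58, SE 0.33, adjusted p = 0.00962). In WT PBS skin its mean was far above that of Cd3e (4.79 CPM). Lef1 of the same list went from a mean of 119 to 4.80 CPM. Bulk skin does not show which cells the counts of Tcf7 and Lef1 came from. Of 8 regulatory T cell genes 5 rose, among them the lineage factor Foxp3, from 0.634 to 3.93 CPM (2.63, SE 0.60, adjusted p = 0.0121). Of 20 T cell cytokines and cytotoxic effectors only 8 had enough counts to be tested, and 4 of these rose, with Gzma (2.83, SE 0.48, adjusted p = 0.00516) and Gzmb (3.34, SE 0.58, adjusted p = 0.00561), the granule proteases of killer cells, first. Of 13 genes marking epidermal gamma-delta T cells, Trdc itself and the gamma chain gene Tcrg-C1 among them, 7 rose and 0 fell. The other 6 did not pass. Trdv4, Tcrg-V5, Cd7 and Xcl1 had log2 fold changes of 0.42 to 1.20, and Fgf7 (-0.54, adjusted p = 0.363) and Cd200r2 (-3.33, adjusted p = 0.0653) were below 0.

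Markers of several other cell types also rose, and their part in the rise of the 10 genes was not tested. Of 11 natural killer cell genes 10 rose, of 16 monocyte and macrophage genes 13, of 14 dendritic cell genes 6, of 10 fibroblast genes 5 and of 18 skeletal muscle genes 17. Of 7 B cell genes 2 rose, of 12 innate lymphoid and mast cell genes 2 (1 fell) and of 12 keratinocyte genes 2. The shares of these last lists were not far from the 19.8% of all genes that rose. The summed level of the macrophage list was 502 to 1133 CPM in WT PBS and 2603 to 3804 CPM in WT BLM mice, and that of the natural killer list 24.6 to 42.5 CPM and 102 to 139 CPM. The natural killer list shares genes with the T cell lists above, among them Klrk1, Nkg7 and Gzma. The defining B cell genes Ms4a1, Cd79a and Pax5 were too low to be tested. Of 29 growing hair genes 15 fell and 0 rose, and the median log2 fold change of the list was -7.81. Of all 18311 genes tested, 2589 fell. All 3 WT PBS mice had growing hair genes high and all 3 WT BLM mice had them low, so in WT skin the hair phase and bleomycin cannot be told apart.

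**Figure D3:**
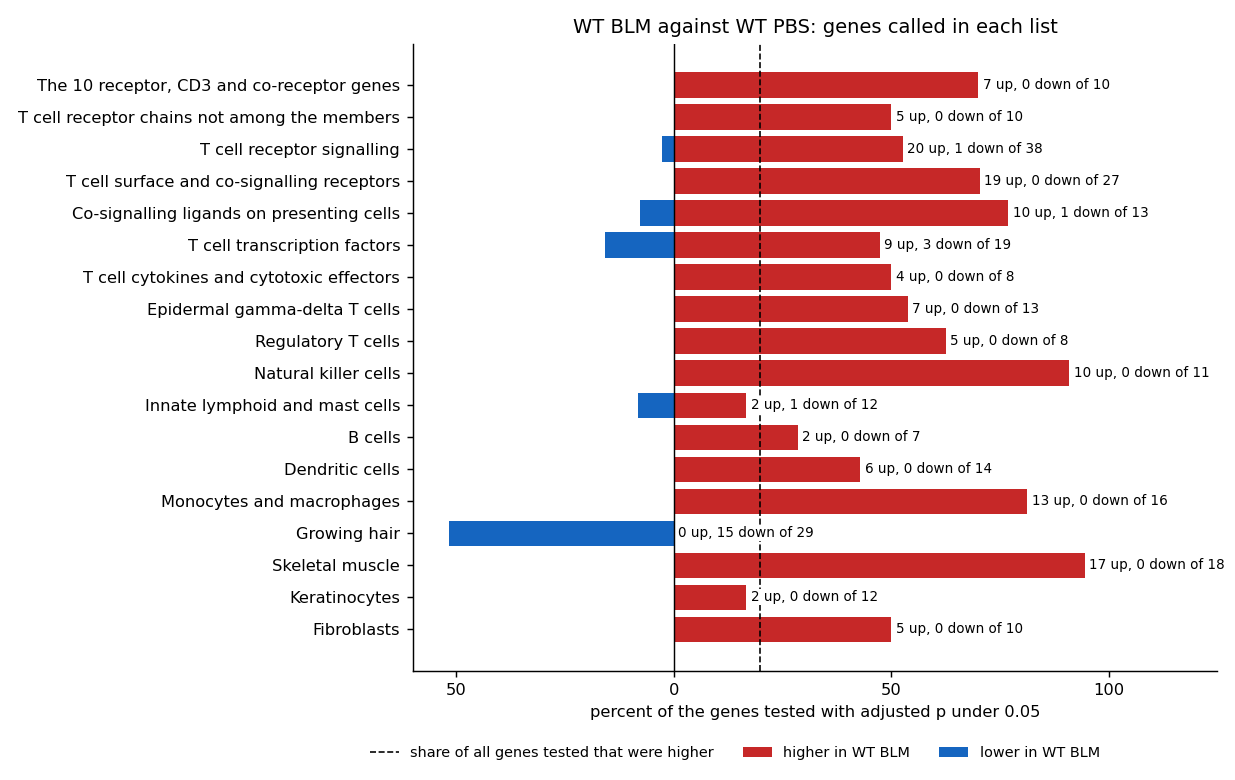
Percent of the genes tested in each list (horizontal axis) that rose (to the right of 0) or fell (to the left) in WT BLM against WT PBS, with the counts beside each bar and a dashed line at the 19.8% of all genes that rose. The 10 receptor and co-receptor genes stand at 7 of 10, beside natural killer genes at 10 of 11 and muscle genes at 17 of 18.

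In Thy-1–KO skin the 10 genes were also higher after bleomycin in direction, but none passed the test. In KO BLM against KO PBS mice 0 of 10 were called, with 0.306% of all genes called. An unadjusted p under 0.05 was found for 6 of the 10 and for 3665 of all 18311 genes. All 10 were above 0, as were 49.3% of all genes. DESeq2 called 4 of them (Trac, Cd3d, Cd4 and Lck) and 6.14% of the genes to which it gave an adjusted p. The same 4 were higher in each KO BLM than in any KO PBS mouse, a pattern found in 10.8% of all genes. The median log2 fold change of the 10 genes was 1.02.

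Trac was at 1.63, 2.40 and 3.16 CPM in KO PBS mice 136, 137 and 139 and at 3.83, 9.49 and 5.23 CPM in KO BLM mice 141, 143 and 144 (1.36, SE 0.36, adjusted p = 0.119). Lck was at 4.45, 4.77 and 4.89 CPM and at 7.81, 13.9 and 9.26 CPM (1.13, SE 0.24, adjusted p = 0.0725), the smallest adjusted p of the 10. The KO PBS mice were close together for Lck, unlike for the other genes. Cd4 was at 2.39, 5.17 and 8.02 CPM and at 10.3, 21.1 and 11.9 CPM (1.47, SE 0.48, adjusted p = 0.160), and Cd3d at 1.16, 3.43 and 4.05 CPM and at 5.11, 8.56 and 7.10 CPM (1.26, SE 0.40, adjusted p = 0.157). For these 4 genes mouse 143 was the highest and mouse 141 the lowest of the KO BLM group, and mouse 136 the lowest of the KO PBS group.

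The other 6 genes overlapped between the groups. Trdc was at 6.62, 17.0 and 19.5 CPM in KO PBS and 19.3, 25.5 and 19.3 CPM in KO BLM mice (0.57, SE 0.43, adjusted p = 0.466). Cd3e was at 4.45, 11.8 and 12.5 CPM and at 12.3, 22.4 and 17.1 CPM (0.85, SE 0.43, adjusted p = 0.294), and Cd3g at 5.72, 14.4 and 18.9 CPM and at 15.3, 25.1 and 17.5 CPM (0.57, SE 0.42, adjusted p = 0.456). In all 3 the overlap came from mouse 139. Mouse 137 was below every KO BLM mouse but near the lowest of them, and mouse 136 was far below. Trbc2 was at 9.47, 18.5 and 17.0 CPM and at 17.5, 30.7 and 36.2 CPM (0.91, SE 0.36, adjusted p = 0.204). Cd8a was at 0.166, 1.20 and 0.745 CPM and at 1.04, 3.91 and 1.38 CPM (1.57, SE 0.63, adjusted p = 0.206), on as few as 5 counts in mouse 136. Cd28 was the nearest to 0, at 0.565, 1.26 and 2.06 CPM and at 1.22, 2.20 and 0.848 CPM (0.14, SE 0.51, adjusted p = 0.901).

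Mice 136 and 141 bear on this comparison. For all 10 genes mouse 136 was below both other KO PBS mice, and without mice 136 and 141 together 3 of the 10 were called (Trac 1.41, SE 0.33, adjusted p = 0.0227, Cd3d 1.06, SE 0.27, adjusted p = 0.0262, and Lck 1.26, SE 0.25, adjusted p = 0.0151), with 22.3% of all genes called. Without mouse 136 alone 1 of the 10 was called (Lck) and 14% of all genes, and without mouse 141 alone 2 (Trac and Lck) and 6.19% of all genes. Over the pathway lists, the genes called in KO BLM against KO PBS were Tnfrsf9, from a mean of 0.599 to 4.57 CPM (2.92, SE 0.39, adjusted p = 0.0312), and, in the lists of other cell types, Cd22 of B cells (3.62, SE 0.56, adjusted p = 0.0388), Ly6c2 of monocytes (3.45, SE 0.46, adjusted p = 0.0312) and Flg of keratinocytes (3.33, SE 0.55, adjusted p = 0.0454). Of the other receptor chains 0 of 10 were called, and Trbc1 had the smallest adjusted p (1.15, SE 0.37, adjusted p = 0.160).

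In PBS-treated skin 9 of the 10 genes were higher in the knockouts in direction, with a wide spread. In KO PBS against WT PBS 0 of 10 were called by edgeR, while 0.0655% of all genes were. An unadjusted p under 0.05 was found for 3 of the 10 and for 3727 of all 18311 genes. The median log2 fold change of the 10 was 0.92, and 51.3% of all genes were above 0. DESeq2 called 1, Trac, and 3.83% of the genes to which it gave an adjusted p. Trac was 2.62-fold higher and was the one gene of the 10 without overlap (1.39, SE 0.37, adjusted p = 0.198), as were 8.62% of all genes. The next were Cd8a (1.19, SE 0.68, adjusted p = 0.312), Cd3g (1.11, SE 0.42, adjusted p = 0.218), Cd3e (0.9996, SE 0.43, adjusted p = 0.240) and Trdc (0.96, SE 0.43, adjusted p = 0.246). Lck was the exception, at -0.11 (SE 0.23, adjusted p = 0.794).

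The KO PBS mice were split. Mice 137 and 139 were above every WT PBS mouse for 8 of the 10 genes, and mouse 136, whose growing hair genes were at the WT PBS level, was not above them except for Trac. Without mouse 136, 6 genes were called (Trac, Trdc, Cd3d, Cd3e, Cd3g and Cd8a), with 36.7% of all genes called and 17.8% higher. Without mice 136 and 141, 6 were also called, with log2 fold changes of 1.61 (SE 0.32, adjusted p = 0.00453) for Trac and 1.47 (SE 0.33, adjusted p = 0.00779) for Cd3g, and then 40.9% of all genes were called and 19.6% higher. In that fit 27 of 29 growing hair genes were lower in the knockouts, 15 of 16 macrophage genes and 8 of 11 natural killer genes were higher, and their part in the difference was not tested. The summed macrophage level was 529 CPM in mouse 136 and 2485 and 1935 CPM in mice 137 and 139.

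Under bleomycin the genotypes were not told apart by any of the 10 genes. In KO BLM against WT BLM, edgeR called 0 of 10, against 0.0928% of all genes. DESeq2 called 0, against 3.34% of the genes to which it gave an adjusted p. By edgeR an unadjusted p under 0.05 was found for 0 of the 10 and for 3043 of all 18311 genes. All 10 overlapped, whereas 14.6% of all genes were higher in KO BLM without overlap. Of the 10, 8 were above 0, as were 47.4% of all genes, and the median log2 fold change of the 10 was 0.37. The 95% intervals were wide, from -0.35 to 1.21 on the log2 scale for Trac and from -1.16 to 1.52 for Cd8a, and a missed threshold does not show equal levels.

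The 2 genes below 0 were Cd4 (-0.58, 95% interval -1.62 to 0.46, adjusted p = 0.518) and Cd28 (-0.73, -1.86 to 0.39, adjusted p = 0.457). The 3 CD3 genes were between 0.31 and 0.71, and Lck at 0.44 (-0.07 to 0.95, adjusted p = 0.352), the smallest adjusted p of the 10. Over 16 macrophage genes 15 were below 0 and 0 were called, and over 10 other receptor chains 10 were above 0 and 0 were called. Leaving out any mouse, or mice 136 and 141 together, gave 0 calls of the 10 as well. Of all genes, 6.89% were then called without mouse 136 and 4.36% without both mice. Without any other mouse at most 0.0748% were.

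Whether bleomycin acted to a different extent in the genotypes was tested directly, as the response of the knockouts minus that of WT mice. It was called for 0 of the 10 genes and for 0% of all genes by edgeR. An unadjusted p under 0.05 was found for 0 of the 10 and for 5687 of all 18311 genes. DESeq2 called 0 of the 10, against 18.5% of the genes to which it gave an adjusted p. For 8 of the 10 the response was smaller in the knockouts in direction, and the median difference was -0.76 on the log2 scale. The difference was above 0 for 2 of the 10 and for 47.15% of all genes. Cd4 was farthest from 0 (-1.41, 95% interval -2.89 to 0.08, adjusted p = 0.178), followed by Cd28 (-1.25, SE 0.73, adjusted p = 0.252). Trbc2 (0.07, SE 0.51, adjusted p = 0.937) and Lck (0.54, SE 0.33, adjusted p = 0.269) were above 0. Without KO PBS mouse 136 the difference for Cd4 passed the threshold (adjusted p = 0.0386, with 39.9% of all genes called), and without mice 136 and 141 it did not (-1.55, SE 0.61, adjusted p = 0.0710), although 38.6% of all genes then did.

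**Figure D4:**
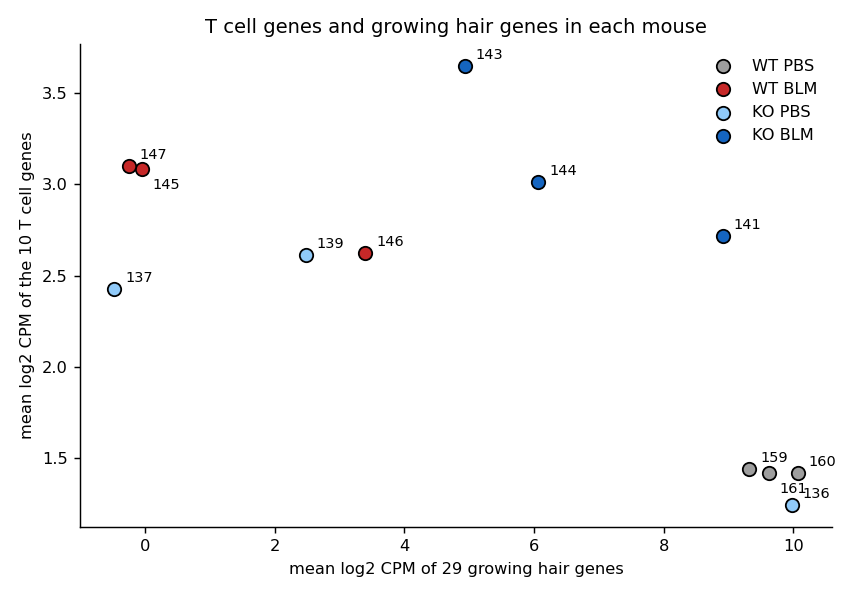
Mean log2 CPM of the 10 T cell genes (vertical axis) against mean log2 CPM of 29 growing hair genes (horizontal axis) in the 12 mice, labelled by mouse number and coloured by group. The WT PBS mice and KO PBS mouse 136 lie at the lower right, and KO BLM mouse 141 has hair genes at 8.91 but T cell genes at 2.72, level with mice whose hair genes are low.

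The mean log2 CPM of the 10 genes was 1.42 to 1.44 in WT PBS mice and 1.24 in KO PBS mouse 136, and 2.42 to 3.65 in the other 8 mice. The 4 low mice were those with growing hair genes above 9 log2 CPM, a line drawn after the values were seen. Mouse 141 lay just below that line, and the remaining mice ranged from -0.475 to 6.07 log2 CPM. The hair genes of mouse 141 stood at 8.91 log2 CPM. Of its 10 T cell genes, 9 were above those of every WT PBS mouse and of mouse 136, with Cd28 the tenth, at 1.22 CPM against 1.28 CPM in WT PBS mouse 160. High T cell genes were thus seen in 1 knockout mouse with high hair genes, and within WT mice the data hold no such mouse. The relation between the T cell genes and the hair genes was not tested.

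Ratios between the genes, chosen after their values were seen, described which chains moved together within a mouse. Trdc counts per Cd3e count lay between 1.13 and 1.68 in all 12 mice, over a range of total Trdc counts from 199 to 824. Trac counts per Cd3e count were 0.132 to 0.236 in WT PBS mice and 0.194, 0.671 and 0.456 in WT BLM mice 145, 146 and 147. In KO PBS mice 136, 137 and 139 they were 0.366, 0.203 and 0.254. KO BLM mice 141, 143 and 144 had 0.312, 0.424 and 0.305. Cd4 counts per Cd3e count were 2.91 and 2.90 in WT BLM mice 146 and 147 and 0.437 to 0.943 in the other 10, mouse 145 among them. Among the WT BLM mice, 146 and 147 thus had more Cd4 and Trac per Cd3e than 145, whose Cd4 and Trac ratios lay within the range of the mice of the other groups. These ratios were not tested.

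**Figure D5:**
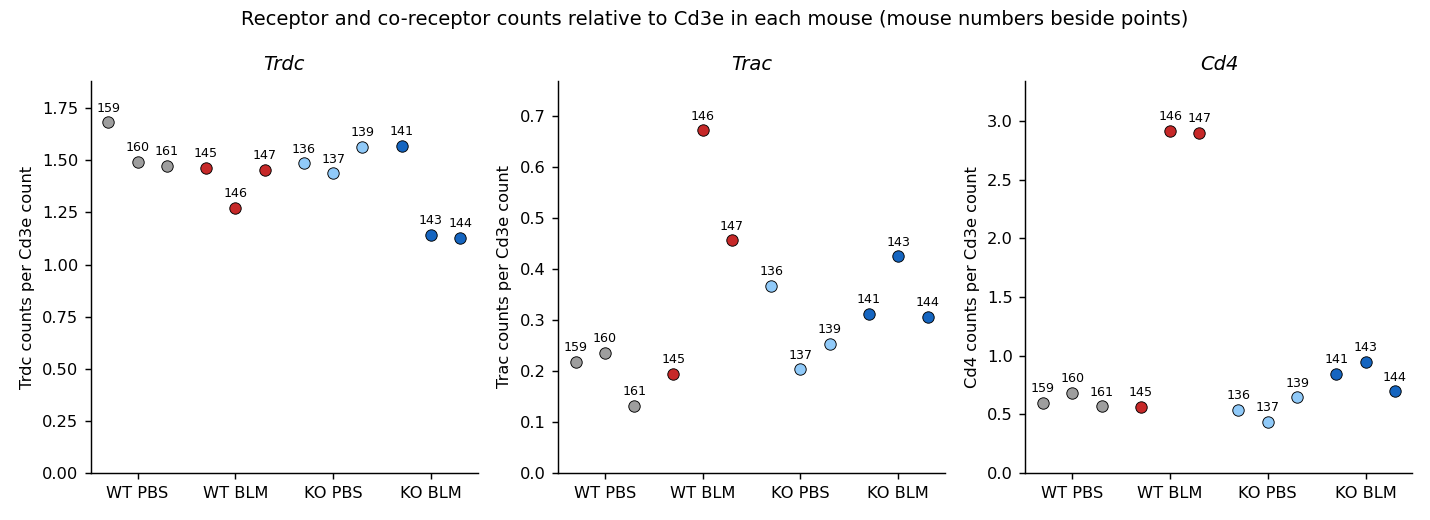
Counts of Trdc, Trac and Cd4 per count of Cd3e (vertical axes, from 0) in each mouse, with mouse numbers beside the points. Trdc keeps between 1.13 and 1.68 everywhere, whereas Cd4 reaches 2.91 and 2.90 in WT BLM mice 146 and 147.

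The variable segments named Trdv or gamma in the file were looked at after the file had been opened. Segments named Trav, some of which can serve delta chains, are not among them. The shares below are thus not the full make-up of the delta chains. Trdv4, a delta segment that dendritic epidermal T cells use, had 877 counts over the 12 mice, 92.7% of the counts on Trdv segments. It was counted in each mouse, from 24 to 126 times. That percentage is a share of segment counts and does not give the share of epidermal cells. Tcrg-V5, the gamma segment of the same cells, had 522 counts, 60.0% of those on gamma segments, and ranged from 12 to 79 counts per mouse. Among the other gamma segments, Trgv2 had 128 counts (14.7%), Tcrg-V6 109 (12.5%) and Tcrg-V4 84 (9.66%). In WT BLM mouse 145 Tcrg-V5 had 72 counts, against 15 and 23 in mice 146 and 147. Mouse 145 was thus high for Tcrg-V5 as it was for Trdc and the CD3 genes. Neither segment passed the test in WT BLM against WT PBS (Trdv4 1.17, adjusted p = 0.0558, and Tcrg-V5 0.82, adjusted p = 0.370).

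The counts on Trbv and Trav segments were too few for a repertoire. All Trbv segments together had 12 to 14 counts in a WT PBS mouse, on 7 or 8 segments, and 24 to 72 counts in a WT BLM mouse, on 10 to 16 segments. In KO PBS mice they had 9 to 39 counts and in KO BLM mice 38 to 116. Trbv13-2 took the most, 19.9% of the Trbv counts, with 92 counts. Trav segments, of alpha or delta chains, had 2 to 14 counts in a WT PBS mouse and 13 to 29 in a WT BLM mouse. A count on such a short segment depends on how the reads of rearranged genes were placed, which the sources used here do not give. That holds for the delta and gamma segments too.

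The genes most like the group were found by the Pearson correlation of log2 CPM over the 12 mice, among 13921 genes, as a description. Closest to the mean of the 10 genes were Itgae (r = 0.974), the CD103 integrin of T cells that live in epithelium, the class I MHC genes H2-D1 (0.974), H2-K1 (0.972) and H2-T22 (0.970), Ptprcap (0.974), Il7r (0.972), Skap1 (0.970), Il2rb (0.970), Zap70 (0.969) and Trbc1 (0.967). Trdc was most like Cd7 (0.984), Tcrg-C1 (0.983), Cd207 (0.970), the langerin of Langerhans cells, Cd247 (0.967) and Mb21d2 (0.952). The genes most like Cd4 included another set: Ms4a7 (0.980), a macrophage gene, Arl4c (0.978), Irf8 (0.976), a factor of monocytes and dendritic cells, and Selp (0.9751), the P-selectin of endothelium and platelets. The genes most like Trac included Gpr55 (0.962), Tph1 (0.962), Ptprcap (0.959) and H2-D1 (0.955). Among the 10 genes themselves, Trdc and Cd3e were closest (0.981), and Cd28 and Trbc2 the farthest apart (0.303).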

How the data were processed

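RNA-Seq counts from the skin of 12 mice were used. The authors made stranded mRNA libraries, sequenced read pairs and deposited whole-number read counts per gene symbol, without normalization. Aligner, counting tool and use of strand are not given in the sources used here. The submitters' processing notes name GRCm38.p6 and MultiQC 1.7. Positions came from GENCODE M21 (GRCm38) by symbol. Every column was used.

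Of 55453 genes, 34689 had a count and 18311 passed filterByExpr (at least 10 counts after scaling, 15 in total). Totals were 26473700 to 38890450, with a median of 31494965. edgeR 4.0.16 in R 4.3.3 fitted 4 group means, with TMM factors and a biological coefficient of variation of 34.9%. The 5 contrasts were tested by quasi-likelihood. For log2 CPM the prior count was 2. The steps were tested on simulated data.

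The 10 genes and all lists were chosen with earlier results of these data known. Per list and comparison at most 4 genes are named, the called ones with the smallest adjusted p. Some genes that this rule or the likeness ranking picks are not reported here. Exceptions are said to be chosen after their values were seen, or are listed members that did not pass. Labels name no litter, cage or batch, so none was modelled, although unnamed ones may exist. The p-values rest on the spread between mice within groups, with an estimate per gene shared by the 4 groups. With 3 against 3 an exact permutation test cannot give a p under 0.1, so none was run. Alternatives were DESeq2 1.42.0, RLE and upper-quartile factors, no filter, a mean of at least 1 CPM, fits of 2 groups, each mouse left out, and mice 136 and 141 left out together. List counts without mice 136 and 141 were added after seeing the data. Python 3.11.15 and matplotlib made the plots.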

Additional observations from a re-analysis of the deposited data

How the results depend on the processing

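Of 940 recomputed fold changes of the 10 genes, 868 kept their direction and their side of the threshold, 30 gained a call, 28 lost one and 14 changed sign. WT BLM against WT PBS gave 7 calls and, with a mouse left out, 2 to 8, while 13.9% to 45.7% of all genes were called. The other settings gave 6 (no filter) to 10 (mice 136 and 141 left out). KO BLM against KO PBS gave 0 calls, 4 with DESeq2, 3 without mice 136 and 141, and 0 to 2 with a mouse left out. KO PBS against WT PBS gave 0 calls, 1 with DESeq2, 6 without both mice, and 0 to 6 with a mouse left out, where the 6 came without mouse 136. KO BLM against WT BLM gave 0 calls in every alternative run, also without mouse 136, where 6.89% of all genes were called. The difference of responses gave 0 to 1, with 1 without mouse 136. The changes of sign were all of genes that did not pass: Cd28 in KO BLM against KO PBS (-0.11 without both mice, -0.32 to 0.64 with a mouse left out), Lck in KO PBS against WT PBS (-0.19 to 0.0402), Trac (-0.0152 to 0.72), Trdc (-0.0828 to 0.74) and Cd8a (-0.62 to 0.54) in KO BLM against WT BLM, and Trbc2 (-0.20 to 0.37) and Cd3d (-0.53 to 0.16) in the difference of responses. The cause was not tested. No paired analysis was possible because every mouse has its own number. Where a group is left with 2 mice they are assumed to vary like the other groups. Cd8a and Cd28 rest on the fewest counts, from 5 and 17 per mouse, which limits their precision most.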
